A study of Mus musculus with 46 samples.

Results

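Gene expression in the livers of male C57BL/6N mice 2 h after carbon tetrachloride (CCl4) was set against that in livers of untreated mice of the same strain and sex. These are 10 of the 46 arrays of the series, 5 at 2 h and 5 controls, chosen by their titles and with no measured value used. The mice were 8 to 10 weeks old and had the same diet. The 2 h group received a single intraperitoneal injection of 1.6 g/kg CCl4 in olive oil, and the controls were left untreated, so the effects of the solvent, the oil and the injection cannot be told apart. The treatment field of the control arrays also reads CCL4, while their titles and the stated design make them untreated. The sources used here do not give the hour at which livers were taken. Whether each numbered array is its own animal is not stated, and the p-values therefore describe array-to-array spread that could be technical.

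CCl4 is converted by hepatocyte cytochromes P450 into a radical that injures the cell within hours. Cells under stress answer first with transcripts that need no new protein for their induction, and many of these are short-lived because AU-rich elements in them recruit decay factors. The early set holds transcription factors and also the signals' own brakes, such as the dual specificity phosphatases that switch off MAP kinases, the SOCS proteins that bind JAK kinases and the IkappaB proteins that hold NF-kappaB in the cytoplasm.

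Values are log2 levels as deposited. Differences are given as log2 fold changes, 2 h minus control, with the standard error after ± and p-values computed by limma and adjusted by Benjamini-Hochberg over 13239 genes. The standard errors and these p-values rest on a spread per gene pooled over all 9 groups of the series. They do not measure the spread of the 2 h and control arrays alone. The SD was larger at 2 h than in controls in 63.7% of genes. A gene is said to have risen, fallen or been called where its adjusted p was under 0.05. Arrays within the 2 h group correlated across genes with r from 0.975 to 0.989, and control arrays from 0.985 to 0.991, a comparison over genes, which do not replicate each other. The first principal component of the 10 arrays held 58.6% of the variance, with scores of 10.6 to 32.5 at 2 h and -21.6 to -20.0 in controls. The highest score was that of 2 h array 3 and the lowest 2 h score that of array 5. Hepatocyte markers averaged 12.8 to 12.9 at 2 h, against 12.8 in each control. Kupffer cell markers averaged 7.57 to 7.86 at 2 h, against 7.93 to 8.12 in controls. The exact permutation p was 0.00794, the smallest that 5 against 5 allows, or 0.0762 adjusted over 16 array measures. Of the 12 markers 3 fell, or 0 with cyclic loess, while 19.9% of all genes tested were called lower in the values as deposited. Whether these markers fell more than genes in general was not tested. In whole liver, fewer cells of a type and less RNA per cell cannot be told apart. The 3 prime minus 5 prime value of the Gapdh control probe sets, a sign of RNA integrity, was lower at 2 h by 0.21 on average (-0.06 to 0.30, against 0.27 to 0.43 in controls, adjusted p = 0.0762 by the same exact test).

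At 2 h, 848 genes had risen and 2638 had fallen, which is 6.41% and 19.9% of the genes tested, and 26.3% together. The rises were fewer, with a median log2 difference of 0.41 against -0.39 for the falls, and made up most of the strong changes. By at least 2-fold, 148 genes rose (1.12%) and 46 fell (0.347%), and 46 rose but 0 fell by at least 4-fold. Without regard to any test, all 5 arrays at 2 h lay above all 5 controls in 4.34% of genes and below them in 14.9%, and this held for 122 of the 148 rises and 42 of the 46 falls. Most changes were small, with 2229 of the 2638 falls and 548 of the 848 rises under 1.5-fold. The split of all calls depended on the scaling of the arrays, with 1238 higher and 1362 lower under cyclic loess and 1153 and 1899 under quantile normalization. At 2-fold or more, cyclic loess gave 175 rises and 31 falls, and quantile normalization 161 and 36. By adjusted p alone, 147 of the 148 rises and 45 of the 46 falls were also called under cyclic loess. Of the 148 genes, 24 were immediate early transcription factors or carried heat shock symbols. The other 124 included growth arrest genes, signal inhibitors, decay factors and metabolic enzymes. The size of the response differed among the 2 h livers, and the median log2 difference of the 148 genes from the control mean was 1.38, 1.64, 2.25, 1.40 and 1.10 on arrays 1 to 5. For the 46 falls it was -1.23, -1.04, -1.45, -1.28 and -0.94. Array 3 had the largest shift in both directions and array 5 the smallest. Without array 3, 142 of the 148 rises and 45 of the 46 falls were still called. The median SD of the 148 genes was 0.557 at 2 h and 0.320 in controls. With only the 2 h and control arrays in the fit, 141 of the 148 rises and all 46 falls were still called.

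**Figure D1:**
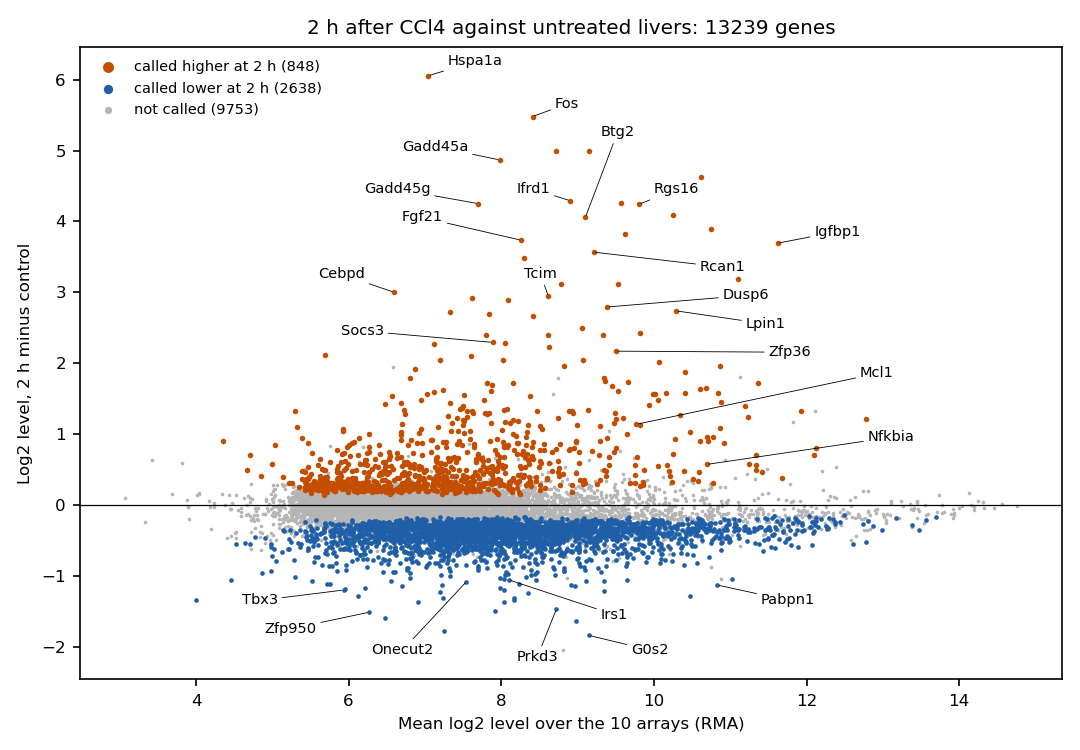
Log2 difference between 2 h and control (vertical axis) against the mean log2 level over the 10 arrays (horizontal axis) for the 13239 genes tested, 1 point per gene, with 848 called higher, 2638 called lower and 9753 not called. The rises reach 6.06 (Hspa1a), while no called fall passes -1.84 (G0s2).

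The 250 bases before the transcription start are shown for 5 regulators whose values follow, because each holds the letters of a response element known from early gene control. They are taken from RefSeq on GRCm38.p6 and are written 5 prime to 3 prime on the gene's strand. Capitals mark only the elements named below for each gene. Matches of other searched motifs, such as the GC box, are left in lower case. Dusp1 lies at chr17:26508473-26508722 on the minus strand, with a cyclic AMP response element (TGACGTCA) starting at -143 and an E-box (CACGTG) at -126. Btg2 lies at chr1:134079156-134079405 on the minus strand, with TGACGTCA at -166. Zfp36 lies at chr7:28379229-28379478 on the minus strand, with a serum response element at -58. Ier3 lies at chr17:35821463-35821712 on the plus strand, with an NF-kappaB site at -92. Cxcl1 lies at chr5:90890995-90891244 on the plus strand, with overlapping NF-kappaB matches at -71 and -70.
Dusp1: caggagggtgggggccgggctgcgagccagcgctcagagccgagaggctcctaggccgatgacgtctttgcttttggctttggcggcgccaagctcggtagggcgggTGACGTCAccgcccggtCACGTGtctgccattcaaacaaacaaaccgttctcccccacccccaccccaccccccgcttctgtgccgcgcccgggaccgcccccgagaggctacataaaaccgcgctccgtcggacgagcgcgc
Btg2: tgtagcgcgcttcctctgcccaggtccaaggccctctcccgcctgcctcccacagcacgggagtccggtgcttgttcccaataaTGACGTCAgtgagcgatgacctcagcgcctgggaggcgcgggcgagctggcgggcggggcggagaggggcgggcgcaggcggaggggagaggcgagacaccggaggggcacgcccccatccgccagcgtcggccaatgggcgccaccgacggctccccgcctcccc
Zfp36: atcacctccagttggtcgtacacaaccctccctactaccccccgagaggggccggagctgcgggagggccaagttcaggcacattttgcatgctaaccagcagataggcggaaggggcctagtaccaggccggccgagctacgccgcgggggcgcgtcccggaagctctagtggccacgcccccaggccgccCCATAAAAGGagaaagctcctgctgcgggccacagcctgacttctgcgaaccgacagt
Cxcl1: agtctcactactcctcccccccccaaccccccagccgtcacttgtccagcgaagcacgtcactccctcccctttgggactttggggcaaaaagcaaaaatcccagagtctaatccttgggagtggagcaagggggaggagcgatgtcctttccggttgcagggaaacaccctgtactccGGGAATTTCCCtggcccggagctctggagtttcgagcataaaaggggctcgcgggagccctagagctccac
Ier3: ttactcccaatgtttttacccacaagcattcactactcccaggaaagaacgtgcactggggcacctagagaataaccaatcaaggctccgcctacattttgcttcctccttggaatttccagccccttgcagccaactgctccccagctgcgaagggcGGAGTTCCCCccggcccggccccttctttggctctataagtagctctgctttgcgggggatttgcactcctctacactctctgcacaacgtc
Promoters were listed for 123 of the 148 genes that rose by at least 2-fold and for 10602 of the 13239 genes tested. In windows of 250 bases before to 50 after the start, searched on both strands, TGACGTCA was found in 6.50% of the promoters of genes that rose at least 2-fold (8 of 123) and in 2.91% of all. The serum response element was found in 3.25% (4 of 123) and 1.37%, and the NF-kappaB site in 10.6% and 9.98%. The TATA box (TATAAA) was found in 14.6% and 8.31%, the E-box in 12.2% and 9.79%, and the GC box (GGGCGG) in 74.8% and 60.1%. The AP-1 site (TGANTCA) was found in 7.32% and 5.48%. These shares are descriptions of letters, with no test, and a match is not a shown binding site.

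Among negative regulators of MAP kinase signalling, 11 of 24 genes rose (45.8%) and 0 fell, with a median difference of 0.24 against -0.03 over all genes. At an unadjusted limma p under 0.05, 1 was lower, and 1 fell without 2 h array 1, 2 h array 5 or control array 3. This list and those below were chosen with earlier results of these data known, so their shares are descriptions. Over all genes tested, 6.41% rose and 19.9% fell, or 1238 and 1362 of 13239 under cyclic loess. The MAP kinase regulators that rose most act at different levels of the pathway. Rgs16, which shortens G protein signals, stood at 12.02, 11.73, 11.70, 12.28 and 11.90 on the 2 h arrays, against 6.50, 7.69, 6.63, 7.89 and 9.70 in controls. The 2 h livers lay within a narrow band above all controls, while control array 5 lay well above the other 4 controls. Its difference was 4.24 ± 0.48 (adjusted p = 1.08e-08). Dusp6, a phosphatase of ERK in the cytoplasm, read 11.25, 10.94, 11.06, 10.95 and 9.72 at 2 h, against 7.15, 8.56, 8.56, 7.44 and 8.24, a difference of 2.79 ± 0.26 (adjusted p = 1.03e-10). Array 5 was the lowest of the 2 h livers, still above every control. Dusp1, the nuclear phosphatase of p38 and JNK kinases, read 11.34, 11.22, 11.12, 10.78 and 10.68 at 2 h, against 8.08, 9.48, 8.94, 8.78 and 7.71 in controls, and rose by 2.43 ± 0.42 (adjusted p = 3.19e-05) with no overlap.

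Ier3, a stress-induced survival regulator, read 5.39, 7.04, 6.90, 6.32 and 8.06 at 2 h, against 4.56, 4.59, 5.00, 4.42 and 4.59 in controls, which is below the level used as the filter on low values. All 2 h values exceeded all controls but spread widely, with array 1 the lowest and array 5 the highest, and the difference was 2.11 ± 0.36 (adjusted p = 2.54e-05). Trib1, a pseudokinase that targets C/EBP proteins for degradation, rose by 1.72 ± 0.16, with 8.50, 8.61, 9.46, 9.03 and 7.77 at 2 h and 6.69, 6.90, 7.22, 6.90 and 7.07 in controls. Its other probe set gave 0.45. Errfi1, an inhibitor of the EGF receptor kinase, is abundant in liver and reached 13.45, 13.40, 13.61, 13.36 and 13.12 at 2 h, against 11.17, 12.36, 12.38, 12.46 and 12.53. Control array 1 lay apart below the others, the groups did not overlap, and the rise was 1.21 ± 0.27 (adjusted p = 0.00087). Within the dual specificity phosphatase family 8 of 20 genes rose and 4 fell, or 7 and 2 under cyclic loess, with 5 rises when 2 h array 3 or array 4 was left out. The other rises were smaller, such as Dusp16, a JNK phosphatase, at 0.62 ± 0.13 and Dusp4, a nuclear phosphatase with all controls below the filter level, at 0.95 ± 0.34. The Dusp4 call (adjusted p = 0.034) ended under cyclic loess (0.0547), with the Gapdh value as covariate (0.243) and without 2 h array 3 (0.162), array 4 (0.0633) or control array 1 (0.0552), 2 (0.0601), 4 (0.0527) or 5 (0.0609). All 4 tested Sprouty and Spred genes, which inhibit Ras signalling, were uncalled, with 0 at an unadjusted limma p under 0.05 and a median of 0.15. Lrig1, a receptor inhibitor, differed by 0.06 ± 0.09 (adjusted p = 0.666) and Rasa1, a Ras GTPase-activating protein, by -0.18 ± 0.10 (0.176). Lrig1 was called higher with the mean of its probe sets and with the probe set of highest interquartile range.

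**Figure D2:**
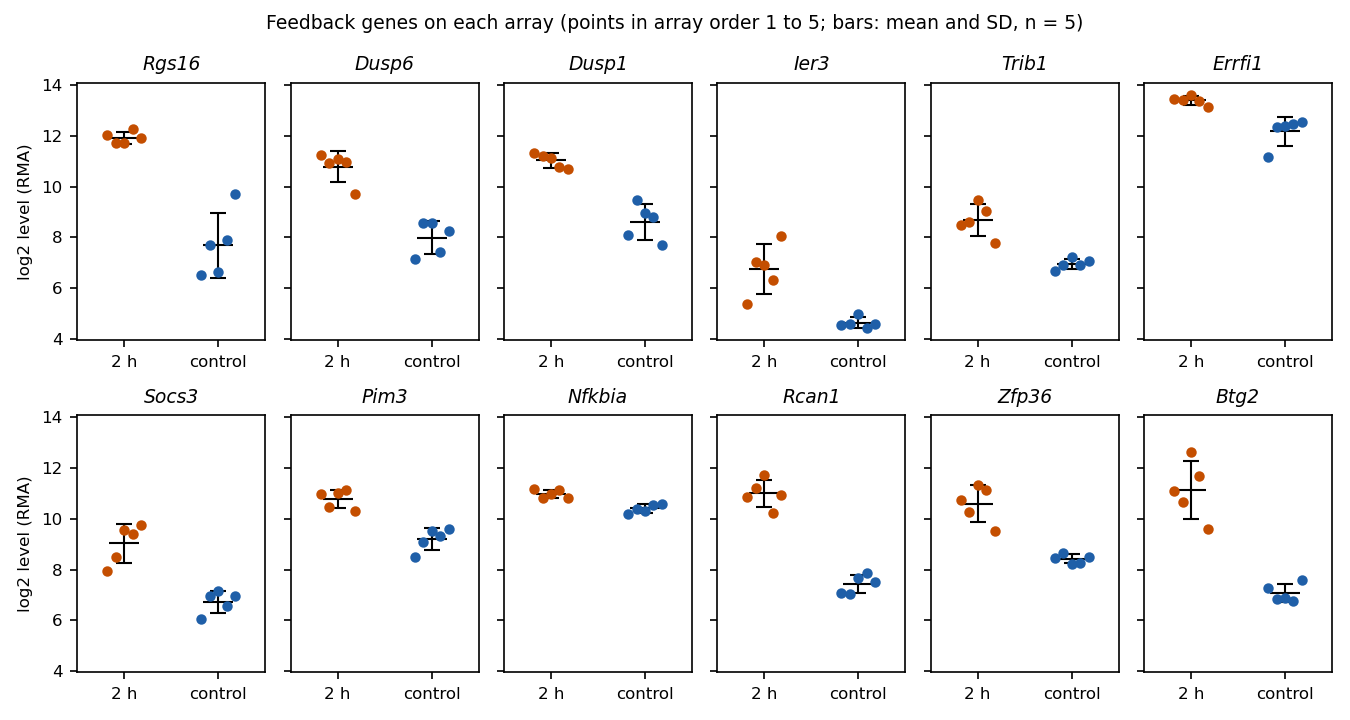
Log2 levels of 12 feedback genes on each array, 2 h on the left and control on the right of each panel, with points in array order 1 to 5 and bars for mean and SD (n = 5). In each of the 12 panels the 2 h points lie above all control points, from a difference of 0.57 for Nfkbia to 4.24 for Rgs16.

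The feedback inhibitors of cytokine pathways moved in part. Of 24 JAK-STAT feedback genes and targets 6 rose and 2 fell, or 4 fell without 2 h array 3. Socs3, which blocks JAK kinases at the interleukin 6 receptor, read 7.95, 8.51, 9.57, 9.41 and 9.74 at 2 h, against 6.07, 6.98, 7.14, 6.55 and 6.96 in controls, a difference of 2.30 ± 0.44 (adjusted p = 0.000131). Pim3, a kinase gene induced through STAT factors, read 10.97, 10.46, 11.01, 11.12 and 10.30 at 2 h, against 8.48, 9.09, 9.53, 9.32 and 9.59, a difference of 1.57 ± 0.20 (adjusted p = 2.43e-07). Both groups of arrays were separate in each gene, and both are read by probe sets of a type that can match related sequences. The lowest of the other probe sets gave 1.09 for Socs3 and 0.11 for Pim3. Ptpn2, a phosphatase of JAK1 and STAT factors, rose by 0.82 ± 0.14 (adjusted p = 2.51e-05). Cish, a SOCS family member, rose by 1.06 ± 0.31 (0.0087) and Il6ra, the interleukin 6 receptor subunit, by 0.68 ± 0.17 (0.00202), and both calls ended with the Gapdh covariate (0.117 and 0.0531). Socs4 fell, by a log2 difference of -0.46 ± 0.12 (0.00469), but the mean of its 4 probe sets gave 0.0032.

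Of 16 NF-kappaB feedback genes 5 rose and 3 fell, which is 31.25% and 18.75%, against 6.41% and 19.9% of all genes. Rcan1, an inhibitor of the phosphatase calcineurin and not an IkappaB gene, rose most in this list. It read 10.85, 11.20, 11.74, 10.25 and 10.94 at 2 h and 7.07, 7.03, 7.67, 7.87 and 7.50 in controls, a difference of 3.57 ± 0.23 (adjusted p = 4.64e-15). Both of its probe sets gave at least 3.50. Nfkbia, which encodes IkappaB alpha, read 11.18, 10.83, 10.97, 11.13 and 10.81 at 2 h, against 10.18, 10.40, 10.32, 10.54 and 10.60 in controls. The groups were separate, although the difference was only 0.57 ± 0.13 (adjusted p = 0.00107). Bcl3, a nuclear IkappaB family member, rose by 1.24 ± 0.18 (adjusted p = 1.24e-06), and Sqstm1, the autophagy receptor p62, by 1.04 ± 0.18 (5.2e-05). Cyld, a deubiquitinase that restrains NF-kappaB, fell, with a difference of -0.43 ± 0.13 (0.0121), as did Birc3, an inhibitor of apoptosis, with -0.38 ± 0.10 (0.00435), and both calls ended with the Gapdh covariate (0.0682 and 0.0503). In the TGF-beta and BMP list 2 of 23 genes rose and 2 fell, or 3 and 1 under cyclic loess, with 5 falls without 2 h array 2, 1 fall without 2 h array 1, 2 h array 4 or control array 5, and 1 rise without 2 h array 2, 2 h array 3 or control array 1, 2 or 5. As deposited each share was 8.70%, against 6.41% higher and 19.9% lower over all genes. Skil, a corepressor of SMAD factors, rose by 1.13 ± 0.22 (adjusted p = 0.000159), with 0.02 from its other probe set.

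Outside the immediate early set, 17 of 48 rapidly induced transcription factors rose and 3 fell, with a median of 0.15. Cebpd, a C/EBP factor of the acute phase response, read 8.08, 8.30, 7.86, 8.47 and 7.77 at 2 h, against 4.36, 5.08, 5.25, 5.41 and 5.38 in controls. Every control value lay below the level used as the filter on low values, and every 2 h array above it. The fitted difference from these low controls was 3.00 ± 0.22 (adjusted p = 5.07e-14), against 0.30 from another probe set. Cebpb, its relative, read 11.89, 11.89, 12.22, 11.96 and 11.29 at 2 h, against 9.14, 9.98, 10.18, 9.96 and 10.22, and rose by 1.96 ± 0.19 (adjusted p = 2.94e-10). Csrnp1, a nuclear factor, read 9.30, 9.50, 10.89, 9.69 and 9.34 at 2 h and 7.47, 7.55, 7.43, 7.61 and 7.48 in controls, with array 3 the highest, and rose by 2.24 ± 0.18 (adjusted p = 1.24e-12). Its other probe set gave 0.04. Id3, which binds basic helix-loop-helix factors and keeps them from DNA, rose by 1.76 ± 0.31. Zbtb16, a zinc finger repressor, rose by 1.49 ± 0.21, and Arid5b, a cofactor of histone demethylation, by 1.30 ± 0.24. For these 3 genes all 2 h arrays lay above all controls (adjusted p = 5.13e-05, 9.17e-07 and 6.53e-05). The lowest probe set of Arid5b gave 0.14 and the highest 1.97. Ets2, a nuclear target of ERK, rose by 1.35 ± 0.28 (0.000401) with overlapping arrays, or by 0.85 without 2 h array 3, and its lowest probe set gave 0.27. Krueppel-like factors include members of the immediate early set, and 6 of 14 rose and 0 fell (0 also at an unadjusted limma p under 0.05). Klf6 rose by 2.92 ± 0.37 and Klf10, an inducible zinc finger repressor, by 2.67 ± 0.41, and both were counted with the immediate early factors. In the large Zfp family 22 of 192 rose and 24 fell, or 27 and 19 under cyclic loess. As deposited that is 11.5% and 12.5%, against 6.41% and 19.9% of all genes.

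Transcription factors and receptors that mark liver identity went down more often than up, as did the genes tested as a whole. Of 41 such genes 15 fell (36.6%) and 2 rose (4.88%), against 19.9% and 6.41% of all genes. The median of the list was -0.13, against -0.03 over all genes. Its rises were 0 without 2 h array 3 and 1 without control array 3. Cyclic loess gave 9 falls and 5 rises in the list, against 1362 and 1238 over all genes. Onecut2, a hepatic cut-homeobox factor, read 7.17, 7.37, 6.64, 6.75 and 7.10 at 2 h, against 7.77, 8.30, 8.07, 8.00 and 8.29 in controls, a difference of -1.08 ± 0.17 (adjusted p = 7.25e-06). Nr2f2, the orphan receptor COUP-TFII, read 7.714, 7.983, 7.888, 8.013 and 8.347 at 2 h, against 8.934, 8.788, 8.989, 9.003 and 8.966, a difference of -0.95 ± 0.14 (adjusted p = 1.59e-06). In both genes the groups were separate. The probe sets of Onecut2 ranged from -1.08 to -0.78 and those of Nr2f2 from -1.47 to 0.14. Nr5a2, a regulator of bile acid genes, changed by -0.76 ± 0.14 (adjusted p = 0.00012), Prox1, a hepatocyte homeobox factor, by -1.07 ± 0.27 (0.00262) and Esr1, the oestrogen receptor, by -1.04 ± 0.26 (0.00269, and 0.186 with the Gapdh covariate). Of 37 nuclear receptors 12 fell and 1 rose, or 8 and 4 under cyclic loess. Without 2 h array 3, 7 fell, and without 2 h array 1, 2 or 5, 2 rose. All 4 NFI factors, which hepatocytes use widely, fell by 0.27 to 0.80 on the log2 scale, but 2 were called under cyclic loess or without 2 h array 3 or control array 3. Hnf4a, the central hepatocyte receptor, differed by 0.30 ± 0.12 and was not called (adjusted p = 0.0595, and 0.00276 with cyclic loess), while 8 of the alternative settings called it higher. Ahr, the dioxin receptor, rose by 0.86 ± 0.25 (0.00926, and 0.0596 without 2 h array 3), with 0.20 from its other probe set.

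The Wnt and Notch list had 11 of 27 genes lower and 0 higher (1 higher at an unadjusted limma p under 0.05, and 1 rose without 2 h array 5 or control array 1), and 7 lower without control array 3, 9 under cyclic loess and 6 with the mean of all probe sets. Tbx3, a T-box factor and Wnt target of pericentral hepatocytes, read 5.48, 4.95, 5.35, 5.27 and 5.64 at 2 h, against 6.64, 6.55, 6.90, 6.32 and 6.25 in controls. The arrays were separate and the difference was -1.20 ± 0.18 (adjusted p = 3.62e-06), with 4 of the 5 values at 2 h below the filter level, while its probe sets ranged from -2.15 to 0.08. Rnf43, a ligase that removes Frizzled receptors, fell to 5.22, 5.27, 5.45, 5.42 and 5.51 at 2 h, against 6.16, 6.11, 6.87, 6.35 and 6.06, a low level in both groups (-0.94 ± 0.24). Lgr4, a receptor of R-spondins, changed by -0.70 ± 0.13 (adjusted p = 6.14e-05), Notch2 by -0.64 ± 0.12 (0.000113) and the Frizzled receptor Fzd5 by -0.60 ± 0.15 (0.0027). Of 17 markers of sinusoidal endothelium, whose cells secrete Wnt ligands, 8 fell and 1 rose, or 2 and 1 under cyclic loess. Of all genes tested 19.9% fell as deposited, and 1362 of 13239 under cyclic loess. Whether the endothelial markers fell more than genes in general was not tested. Among these markers the falls were 4 or 5 without 2 h array 1, 3 or 4 or control array 2, 3 or 4, and the rises 0 without 2 h array 3 and 2 without 2 h array 2. Their mean level was 7.48 to 7.68 at 2 h, against 7.67 to 7.82 in controls. Their part in the falls of the Wnt list was not tested.

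Several decay factors that bind AU-rich transcripts or recruit deadenylases rose. Of 33 mRNA decay genes 6 rose and 8 fell, or 5 fell without 2 h array 4 or control array 5, and 4 under cyclic loess, where 7 rose. As deposited that is 18.2% higher and 24.2% lower, against 6.41% and 19.9% of all genes tested. Under cyclic loess 1238 of all 13239 genes rose and 1362 fell. Zfp36, tristetraprolin, which binds AU-rich elements, read 10.72, 10.27, 11.32, 11.13 and 9.52 at 2 h, against 8.45, 8.67, 8.23, 8.26 and 8.50 in controls. The control arrays were tight, array 3 was the highest and array 5 the lowest of the 2 h livers, and the difference was 2.17 ± 0.22 (adjusted p = 9.97e-10). Btg2, which brings the CCR4-NOT deadenylase to transcripts, read 11.11, 10.66, 12.61, 11.67 and 9.60 at 2 h, against 7.28, 6.85, 6.88, 6.75 and 7.60, with the same arrays at the extremes, and rose by 4.06 ± 0.27 (adjusted p = 1.42e-14). Its SD was 1.12 at 2 h and 0.36 in controls. Zfp36l1, a relative of tristetraprolin, rose by 1.58 ± 0.22 (adjusted p = 1.14e-06). Tob2, a relative of Btg2, rose by 1.33 ± 0.21 (6.52e-06), with a lowest probe set of 0.04. Dcp2, the decapping enzyme, changed by -0.60 ± 0.15 (0.00208), a call that ended with the mean of its probe sets, and Pan2, a deadenylase subunit, by -0.49 ± 0.09 (9.07e-05). Btg1 and Tob1, abundant relatives of the genes above, differed by 0.06 ± 0.23 (0.87) and 0.02 ± 0.19 (0.943).

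Of 35 short-lived stress and growth transcripts, 23 rose, 18 of them by at least 2-fold, and 1 fell, with a median of 1.14. Without 2 h array 3, 3 fell, and without control array 5, 2 fell. The list was drawn up with earlier results of these data known, so its share is a description. Gadd45g, a growth arrest gene, read 9.13, 9.67, 10.22, 9.96 and 10.13 at 2 h, against 4.99, 6.26, 5.50, 5.97 and 5.13 in controls, a difference of 4.25 ± 0.57 (adjusted p = 5.37e-07). Plk3, a stress-activated kinase, read 10.01, 10.30, 11.26, 10.32 and 9.88 at 2 h, against 6.57, 7.40, 7.30, 7.45 and 7.40, and rose by 3.13 ± 0.26 (adjusted p = 5.12e-12). Ier2, an early response gene, read 10.25, 10.00, 11.04, 11.01 and 9.23 at 2 h, against 7.75, 7.86, 8.03, 7.51 and 7.85, and rose by 2.50 ± 0.21 (adjusted p = 5.12e-12). None of the 3 overlapped its controls. Chka, choline kinase alpha, rose by 2.39 ± 0.41 (adjusted p = 2.54e-05), whereas Odc1, the ornithine decarboxylase of polyamine synthesis, differed by -0.41 ± 0.22 and was not called (0.175). Odc1 was called lower when read by its probe set with the highest interquartile range (limma adjusted p = 0.0225). Strong rises were also found outside the lists. Ifrd1, a transcriptional coregulator, read 10.97, 10.71, 12.86, 11.01 and 9.70 at 2 h, against 6.24, 6.56, 6.79, 7.05 and 7.13 in controls, and rose 19.6-fold (4.29 ± 0.35, adjusted p = 2.98e-12). Tcim, a small regulator of Wnt signalling, read 10.05, 10.16, 11.19, 9.82 and 9.23 at 2 h, against 6.68, 6.82, 7.38, 7.95 and 6.90, and rose 7.69-fold (2.94 ± 0.24, adjusted p = 2.52e-12).

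**Figure D3:**
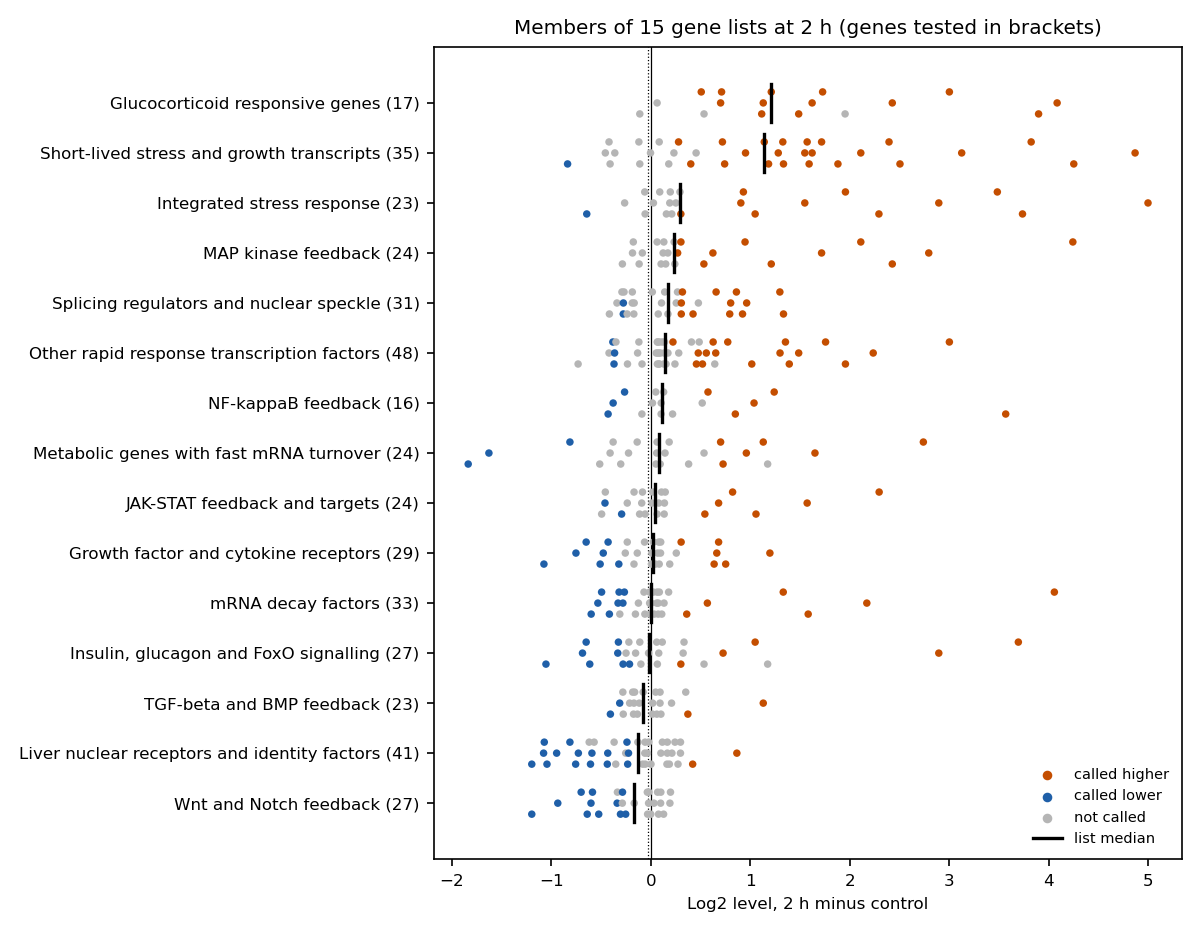
Log2 differences, 2 h minus control, of the tested members of 15 gene lists, 1 point per gene, with a bar at each list's median and a dotted line at the median of all genes (-0.03). The glucocorticoid and short-lived lists have medians of 1.21 and 1.14, and the Wnt and Notch list has no called gene above 0.

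Of 17 glucocorticoid responsive genes 13 rose, 4 were not called and 0 fell (0 also at an unadjusted limma p under 0.05), with a median of 1.21. The list was chosen with earlier results of these data known. Several of them (Cebpd, Dusp1, Zbtb16, Errfi1) are members of lists above. Fkbp5, a cochaperone of the glucocorticoid receptor, read 9.23, 8.75, 9.03, 8.93 and 9.13 at 2 h, against 7.15, 6.87, 7.44, 7.21 and 7.75 in controls. The groups were separate and the difference was 1.73 ± 0.16 (adjusted p = 3.42e-11), with 0.07 from its lowest probe set. Mt2, a metallothionein that binds zinc and cadmium, read 12.56, 12.26, 13.44, 12.63 and 10.60 at 2 h, against 9.69, 7.58, 7.54, 7.40 and 8.86, and rose by 4.08 ± 0.57 (adjusted p = 9.71e-07). Metallothioneins also answer to metals and oxidative stress. Tdo2 and Pck1, classical hormone targets in hepatocytes, were not called, at 0.06 ± 0.29 (adjusted p = 0.902) and 0.53 ± 0.49 (0.457). With only the 2 h and control arrays in the fit, Pck1 was called higher (limma adjusted p = 0.00528). Handling and injection cannot be told apart from treatment here.

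Of 27 genes of insulin, glucagon and FoxO signalling 5 rose and 8 fell, which is 18.5% and 29.6%, against 6.41% and 19.9% of all genes. The balance depended on the scaling, with 7 rises and 4 falls under cyclic loess and 6 of each under quantile normalization. Igfbp1, a secreted binding protein of insulin-like growth factors, read 13.644, 13.767, 14.002, 13.470 and 12.486 at 2 h, against 10.754, 10.341, 7.242, 9.013 and 11.545 in controls, and rose by 3.69 ± 0.50 (adjusted p = 6.45e-07). Ddit4, an inhibitor of mTORC1, read 10.06, 10.33, 9.31, 9.19 and 8.79 at 2 h, against 6.90, 6.46, 6.63, 6.67 and 6.56, and rose by 2.90 ± 0.25 (adjusted p = 8.29e-12). Irs2, an insulin receptor substrate, rose by 0.73 ± 0.18 (0.00261) with overlapping arrays. Irs1, the other substrate, went the other way, with 7.25, 7.78, 7.91, 7.30 and 7.63 at 2 h and 8.99, 8.43, 8.55, 8.84 and 8.34 in controls, a difference of -1.05 ± 0.15 (adjusted p = 1.14e-06). Its groups did not overlap. Insr, the insulin receptor, changed by -0.65 ± 0.11 (adjusted p = 1.29e-05, lowest to highest probe set -0.65 to -0.03), and Sesn3, a FoxO target that restrains mTORC1, by -0.61 ± 0.11 (9.08e-05).

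Of 33 cytokine and growth factor ligands 4 rose and 2 fell, or 6 and 1 under cyclic loess. That is 18.2% of them called, against 26.3% of all genes. Fgf21, a hormone of the stressed and fasted liver, read 10.61, 11.51, 10.57, 8.89 and 9.05 at 2 h, against 6.41, 6.03, 6.13, 6.53 and 6.86 in controls, with arrays 4 and 5 the lowest at 2 h, and rose by 3.74 ± 0.33 (adjusted p = 1.28e-11). Cxcl1, a chemokine that attracts neutrophils, read 10.78, 10.72, 11.35, 11.73 and 10.84 at 2 h, against 7.95, 7.73, 8.01, 7.82 and 8.30, and rose by 3.12 ± 0.38 (adjusted p = 7.76e-08). It is read by a probe set of the shared type, and its probe sets ranged from 1.95 to 3.79. Neutrophil markers, of which 0 of 9 were called (limma, 1 at an unadjusted p under 0.05 and 1 called without 2 h array 2), averaged 5.91 to 6.43 at 2 h, against 5.72 to 6.10 in controls. Tgfa, a ligand of the EGF receptor, changed by -0.54 ± 0.14 (adjusted p = 0.00403), a call that ended with the mean of its probe sets. Among 29 growth factor and cytokine receptors 6 rose and 7 fell, which is 44.8% of them called. Il1r1, the signalling receptor of interleukin 1, read 8.78, 8.75, 9.44, 8.52 and 8.26 at 2 h, against 7.24, 7.33, 7.91, 7.52 and 7.78, and rose by 1.197 ± 0.189 (adjusted p = 8.66e-06, with -0.07 from its other probe set). Tnfrsf1b, a receptor of tumour necrosis factor, rose by 0.66 ± 0.10 (6.59e-06). Met, the receptor of hepatocyte growth factor, read 8.16, 8.18, 8.43, 8.16 and 8.41 at 2 h, against 8.89, 8.96, 8.97, 9.02 and 9.27, a difference of -0.75 ± 0.12 (adjusted p = 7.25e-06), while its other probe set gave 0.02. Erbb3, a partner of the EGF receptor, changed by -1.07 ± 0.19 (4.18e-05), against 0.17 from its other probe set.

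Regulators of transcription elongation and of splicing changed individually. Brd2, a bromodomain protein that reads acetylated histones, read 9.97, 10.54, 10.78, 9.95 and 9.99 at 2 h, against 8.35, 8.59, 8.40, 8.55 and 8.41 in controls, and rose by 1.79 ± 0.16 (adjusted p = 1.28e-11). Brd3, its paralogue, fell to 6.87, 6.83, 6.58, 6.57 and 6.92, against 7.69, 7.48, 7.64, 7.56 and 7.51, a difference of -0.82 ± 0.08 (adjusted p = 9.61e-11). Both sets of arrays were separate, in opposite directions. Ell2, an elongation factor, rose by 0.95 ± 0.15 (9.83e-06) and Ccnt1, the cyclin of the elongation kinase P-TEFb, by 0.53 ± 0.10 (0.000101), among 6 rises and 2 falls in 32 elongation and Mediator genes (4 falls without 2 h array 2, and 8 rises and 1 fall under cyclic loess). The other probe set of Ell2 gave 0.16. Of 31 splicing regulators and speckle RNAs 12 rose and 2 fell, or 6 fell without 2 h array 2 and 1 without 2 h array 4 or under cyclic loess. Clk1, a kinase of SR splicing factors, read 10.17, 10.36, 10.44, 10.01 and 9.69 at 2 h, against 8.72, 9.08, 8.52, 8.83 and 9.03 in controls, and rose by 1.30 ± 0.14 (adjusted p = 4.51e-09). Ccnl1, a cyclin of nuclear speckles, rose by 1.33 ± 0.14 (1.53e-09), Clk4 by 0.86 ± 0.12 (8.41e-07) and the SR-like factors Tra2a and Tra2b by 0.92 ± 0.21 and 0.79 ± 0.16 (0.00128 and 0.000296). The lowest probe sets of Tra2a and Tra2b gave 0.16 and 0.06. Pabpn1, the nuclear poly(A)-binding protein, is in none of these lists and was among the largest falls. It read 10.16, 10.39, 10.18, 10.22 and 10.39 at 2 h, against 11.57, 11.49, 11.26, 11.35 and 11.30, a difference of -1.13 ± 0.12 (adjusted p = 2.72e-09), with every probe set at -0.84 or below. Sirt1, a deacetylase, rose by 0.92 ± 0.15 (1.29e-05), and Nsd1, a histone methyltransferase, changed by -0.61 ± 0.11 (5.91e-05), among 7 rises and 11 falls in 50 chromatin regulators. That split turned to 12 rises and 7 falls under cyclic loess, 12 and 8 under quantile normalization, and 8 and 4 with the mean of probe sets.

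Metabolic genes with fast turnover of their mRNA gave 6 rises and 3 falls of 24. Lpin1, a phosphatidate phosphatase and nuclear coactivator, read 11.60, 11.44, 11.73, 11.79 and 11.74 at 2 h, against 7.79, 8.19, 8.91, 9.82 and 9.90 in controls. The 2 h livers lay close together, the controls were spread wider below them, and the rise was 2.74 ± 0.39 (adjusted p = 1.55e-06). Pfkfb3, which was listed as a hypoxia target, makes a fructose bisphosphate that activates glycolysis. It read 7.66, 8.19, 8.26, 8.41 and 8.56 at 2 h, against 5.35, 5.35, 7.08, 6.75 and 6.33, and rose by 2.04 ± 0.28 (adjusted p = 8.52e-07), with 0.32 from its other probe set. Of 23 integrated stress response genes 11 rose and 1 fell. Ppp1r15a, the phosphatase subunit that ends eIF2 alpha phosphorylation, rose by 1.55 ± 0.16 (adjusted p = 1.67e-09), and Slc38a2, an amino acid transporter counted in the list of transporters (5 of 25 higher and 4 lower, or 5 and 2 under cyclic loess), by 1.58 ± 0.17 (6.25e-09), against 0.01 from its lowest probe set. Mcl1, a short-lived survival protein of the BCL2 family, read 10.15, 10.11, 11.55, 10.30 and 9.60 at 2 h, against 9.13, 9.26, 9.23, 8.88 and 9.50, with array 3 the highest, and rose by 1.14 ± 0.22 (adjusted p = 0.000144), but its 6 probe sets ranged from -0.13 to 1.14 and their mean was not called.

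Of the 46 genes that fell by at least 2-fold, 38 were in none of the signalling and transcription lists. Prkd3, a protein kinase D, read 8.13, 8.21, 7.60, 7.97 and 8.05 at 2 h, against 9.62, 9.28, 9.30, 9.61 and 9.47 in controls, a difference of -1.46 ± 0.13 (adjusted p = 8.63e-12). Zfp950, a zinc finger gene, read 5.56, 6.05, 5.28, 4.87 and 5.80 at 2 h, against 7.23, 7.09, 6.94, 6.82 and 7.03, a difference of -1.51 ± 0.20 (adjusted p = 2.97e-07). Both genes were lower on every 2 h array than on any control. Dixdc1, a Wnt pathway adaptor, changed by -1.59 ± 0.30 (adjusted p = 0.000116), with 0.13 from its highest probe set. Dyrk2, a kinase, changed by -1.17 ± 0.15 (1.29e-07) and Gas1, a growth arrest surface protein, by -1.37 ± 0.24 (4.59e-05), with highest probe sets of -0.22 and -0.07.

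Genes that rose by at least 2-fold had shorter spans than most. The span from start to end in the annotation had a median of 11.1 kb in the 148 genes that rose by at least 2-fold, against 21.7 kb in all genes tested and 19.6 kb in the 46 that fell by at least 2-fold. Of 1817 genes under 5 kb, 2.64% rose by at least 2-fold, against 0.57% of 3533 genes of 20 to 50 kb and 0.63% of 1599 over 100 kb. The share of genes called lower was about the same in every class in the values as deposited, from 19.2% to 20.8%. Under cyclic loess it was 8.70% under 5 kb, 12.2% at 50 to 100 kb and 12.1% over 100 kb. No test was run on these shares. Long genes among the strong rises included Rcan1 (74219 bases), Fkbp5 (87397 bases) and Lpin1 (118235 bases).

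**Figure D4:**
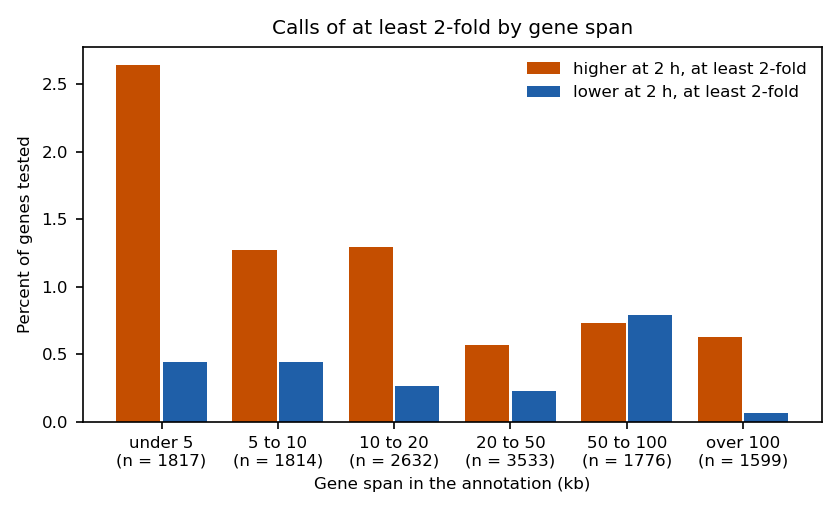
Percent of tested genes that were called and at least 2-fold higher or lower at 2 h (vertical axis, from 0) in 6 classes of gene span in kb (horizontal axis, number of genes tested under each class). The higher bar reaches 2.64% in genes under 5 kb and stays between 0.57% and 1.29% in longer classes.

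The 8 h livers, also 5 arrays, show how long the changes lasted. Comparisons of 2 h and 8 h with control share the control arrays, so their values are given side by side, and the test is that of 8 h against 2 h, in which 35.9% of all genes were called. Of the 148 genes that rose by at least 2-fold, 67 were lower at 8 h than at 2 h and 31 were higher, against 15.4% and 20.4% of all genes. Since the 148 were chosen for high 2 h values, these counts are a description. Rgs16 was 0.51 above control at 8 h, after 4.24 at 2 h (8 h minus 2 h -3.74, adjusted p = 3.91e-08). Zfp36 stood at -0.17 at 8 h, Ier2 at -0.24, Tcim at -0.15, Pim3 at 0.15 and Pfkfb3 at -0.04 (8 h minus 2 h from -3.09 for Tcim to -1.42 for Pim3, each called). Feedback genes did not leave together. Dusp6 was still 1.22 at 8 h, Dusp1 1.53 and Socs3 1.63, and the last pair was not called against 2 h (adjusted p = 0.0919 and 0.24). Dusp4 went on to 2.69, and Ifrd1 to 5.17. Fkbp5, Igfbp1, Mt2 and Klf6 were not called between the times (adjusted p = 0.241, 0.698, 0.564 and 0.276). Of the 46 genes that fell by at least 2-fold, 39 were called lower at 8 h as well. Between the times, 9 of the 46 were called back towards control and 9 further from it. Met stood at 0.06 at 8 h and Notch2 at 0.11, against -0.75 and -0.64 at 2 h, and both were called between the times (adjusted p = 4.31e-07 and 3.32e-06). Irs1 was -1.41 and Insr -0.72 at 8 h, with no call against 2 h (0.0574 and 0.622).

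**Figure D5:**
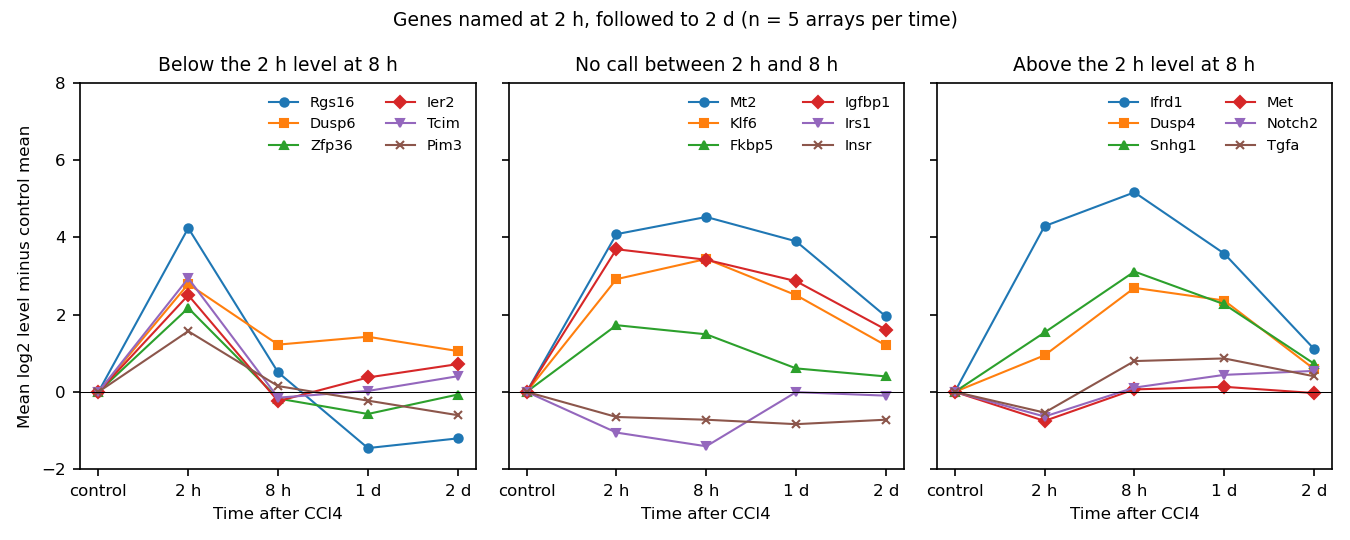
Mean log2 level minus the control mean (vertical axis) in controls and at 2 h, 8 h, 1 d and 2 d (horizontal axis, n = 5 arrays each) for genes below their 2 h level at 8 h, genes with no call between 2 h and 8 h, and genes above their 2 h level at 8 h. Rgs16 reaches 4.24 at 2 h and 0.51 at 8 h, while Ifrd1 reaches 4.29 and 5.17.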

How the data were processed

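Liver RNA from 46 arrays was measured on Affymetrix mouse genome arrays, and the deposited values are log2 expression levels made by the authors with RMA, per the submitters' processing notes, which also name oligo 1.52.0. RMA fits probe set levels across arrays together, so a shift shared by most genes is removed. Of 45101 probe sets, 34945 named 1 gene, 932 several and 9160 none in the platform annotation, with 64 controls, and names were updated through Entrez identifiers (34741 matched). The probe set with the highest mean stood for each of 18193 genes. Genes above 5.56 on at least 5 arrays were tested (13239), and 4954 were removed. limma 3.58.1 in R 4.3.3 was fitted to all 9 groups with Benjamini-Hochberg adjustment over the genes tested. For array measures, exact two-sided permutation tests were run in SciPy 1.17.1, and Python 3.11.15, pandas 2.3.3 and matplotlib 3.10.9 were used for tables and plots. The number of arrays limits the precision, with a median standard error of 0.0966. Tested on simulated data with 13239 genes, the fit recovered 90% of 1.5-fold and 100% of 2-fold and 4-fold changes, and 4.43% of its calls were unchanged genes. The simulation changed 200 genes and drew independent normal noise with the same SD for a gene in every group. In the measured arrays the SD was larger at 2 h in 63.7% of genes, so these rates do not carry over to them. Members and lists were chosen with earlier results of these data known. Named genes were the 25 strongest rises and the 25 strongest falls among genes called with separate arrays, of each list the 8 called members of largest change and the 2 uncalled members of highest mean, of each symbol family the 4 called members of largest change, and every member where at most 6 were tested. Members of a list given beyond that rule, and Foxo3, Tsc22d3, Snhg1, Snhg12 and Snhg16, were chosen after their values were seen. Alternatives covered array scaling, filters, the probe set rule, the variance model, array weights, the arrays in the fit, a Gapdh covariate, a minimum fold of 1.2, the array number as a block and leaving out each array. Arrays of the same number did not deviate together (correlations of 0.22, 0.00, -0.15, -0.04 and -0.03).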

Additional observations from a re-analysis of the deposited data

Results flagged for a closer look

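In 12 of 242 groups of 5 arrays (4.96%), 1 array lay far from the other 4, and chance alone gives about 1 in 20. At 2 h these were Csrnp1 on array 3 (10.89), Dusp6 on array 5 (9.72), and the mean levels of monocyte markers (6.53) and cholangiocyte markers (6.05), both high on array 3. In controls, array 1 was low for Cebpb (9.14), Errfi1 (11.17) and Plk3 (6.57) and high for Chka (7.16). The other high control values were Tob1 on array 2 (10.97), Ier3 on array 3 (5.00), Skil on array 4 (7.90) and Snhg1 on array 5 (8.28).

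For 3 of the named genes the difference from control was called in opposite directions at 2 h and 8 h, and the difference between the times was itself called by limma. Tsc22d3, a glucocorticoid-induced leucine zipper gene, stood at 1.11 at 2 h and -1.19 at 8 h, and 8 h minus 2 h was -2.31 (adjusted p = 1.75e-08). Foxo3, a forkhead factor restrained by insulin signalling, stood at 0.77 and -1.23, a step of -2.01 (1.72e-13). Tgfa stood at -0.54 and 0.80, a step of 1.33 (6.84e-10), but its call at 2 h ended with the mean of its probe sets. Over all genes, 170 were called in opposite directions at these times, 13 of them higher at 2 h and 157 lower at 2 h.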

How the results depend on the processing

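Of 2511 values of the named genes under an alternative, 2458 kept their direction and their side of the threshold, and 78 of 105 genes did so under every alternative. The exception in direction was Socs4, at 0.0032 when its probe sets were averaged. A call ended in 40 values. In 12 values, of Hnf4a, Lrig1, Odc1 and Pck1, a gene not called became called. The calls of 6 genes ended with the Gapdh covariate, 4 with the mean of probe sets, 1 with cyclic loess and 22 when tested against a minimum fold of 1.2. The count of called genes was 411 with that minimum fold, 198 higher and 213 lower, where the stricter hypothesis itself lowers it. The higher calls were 525 with the Gapdh covariate, the lower calls 1362 with cyclic loess, and the falls of at least 2-fold 19 with the mean of probe sets; the cause was not tested. Leaving out single arrays gave 2610 to 3684 calls, 634 to 871 higher and 1910 to 2813 lower, while 158 to 229 calls reached 2-fold, with 120 to 168 rises and 38 to 61 falls. With the replicate number as a block, 3502 genes were called (850 rises and 2652 falls), and 195 reached 2-fold (148 rises and 47 falls). The block changed 0 calls of the named genes, and the numbers do not pair the arrays. Low signal limits several genes, since all controls of Ier3, Cebpd, Dusp4 and Hspa1a and all 2 h values of Rnf43 lie below the filter level, and 18 of the 148 strong rises are read by probe sets of the shared type.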

Other observations

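Of the host genes of small nucleolar RNAs, 3 are given here, chosen after their values were seen. Snhg1 read 8.84, 9.55, 9.46, 8.84 and 9.04 at 2 h, against 7.49, 7.33, 7.39, 7.53 and 8.28 in controls, and rose by 1.54 ± 0.24 (adjusted p = 7.35e-06). Snhg12 rose by 1.44 ± 0.30 (0.000338) and Snhg16 by 1.04 ± 0.16 (6.59e-06). At 8 h the differences from control were 3.12, 2.66 and 1.84. Among mitochondrial genes the number of falls depended on the scaling of the arrays, against 19.9% of all genes called lower in the values as deposited. Of 33 complex I genes 27 fell, or 4 under cyclic loess, and of 73 mitochondrial ribosomal genes 42 fell, or 16 under cyclic loess. Under cyclic loess 1362 of all 13239 genes tested were called lower, so the 19.9% is not the share to set beside those smaller counts.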
